A study of Mus musculus with 27 samples.

Results

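The probes described here report immunoglobulin heavy and light chains on an expression array of sorted mouse cells. They were chosen by the array's own annotation, as every probe whose symbol starts with Igh, Igk or Igl, other than Ighmbp2, or whose definition names an immunoglobulin heavy, kappa or lambda chain. This gave 33 of 45281 probes. Of these, 28 probes under 20 symbols report an immunoglobulin chain, namely 7 for heavy chain constant regions, 8 for heavy chain variable regions, 1 for the kappa constant region, 9 for kappa variable or unspecified kappa chains, 2 for lambda and 1 for the surrogate light chain. The other 5 probes belong to Rbpj (3 probes) and Rbpjl (2 probes), DNA-binding proteins that carry the words kappa J region in their full names and encode no antibody chain. The set was proposed after large rises of kappa probes in Mbd2-/- cDC1s were known, so the cDC1 genotype comparison is given below as a description without a test. A further 164 immunoglobulin probes carry other styles of name, such as IGHA, and lie outside the rule.

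The cells came from the inflamed colon lamina propria of wild type (WT) and Mbd2-/- littermate mice that were housed together and all given 2% dextran sodium sulphate (DSS), a detergent-like polymer that damages the epithelium. Mbd2 encodes a protein that binds methylated DNA. The groups were 5 WT and 5 Mbd2-/- arrays of monocytes, 5 and 5 of macrophages, and 2 WT and 3 Mbd2-/- of cDC1s, a type of dendritic cell. All were sorted as CD45+ cells without Ly6G and Siglec-F. Monocytes were then CD11b+ with Ly6C, macrophages CD11b+ with F4/80 and MHC class II but no Ly6C, and cDC1s CD11c+ with CD103 but no CD11b. Each array held RNA of 1 or more mice, and the deletion was in every cell of the animal. The label says of 2 further arrays, 1 per genotype, that they hold splenic CD4 T cells from a T cell transfer model of colitis, and these have no replicate. The gates given for these sorts name no B lineage marker, while the methods count myeloid cells among lineage-negative cells, and whether that gate was part of the sorts was not given in the sources used here. The single Mbd2 probe was above background on 0 of 25 colon arrays (raw intensity 78.4 to 100), so it gives no check of the genotype labels.

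Antibodies are made by B lymphocytes and, in far larger amounts, by plasma cells, which are abundant in the lamina propria of the gut. A heavy chain gene and a light chain gene, kappa or lambda, are each assembled from variable, joining and, for heavy chains, diversity segments and then read together with a constant region. The constant region sets the class (mu for IgM, gamma for IgG, alpha for IgA), while the variable segment differs between clones, so that the mixture of variable segments depends on which clones are sampled. Monocytes, macrophages and dendritic cells do not rearrange these genes but carry Fc receptors that bind finished antibody.

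Levels below are normalized log2 intensities, on which 1 unit is a 2-fold difference and probes at background sit near 4.3. A probe was taken as detected on an array at a detection p under 0.05, and a difference was called at an adjusted p under 0.05 with a log2 difference of at least 1 (limma with Benjamini-Hochberg adjustment over all probes tested). Arrays are named by the number in their label. Of the 28 immunoglobulin chain probes, 13 were detected on all 25 colon arrays, 20 on at least 13, 5 on 1 to 12 and 3 on none. The 3 on none were Igh-V, the Igh-VS107 probe ILMN_1223662 and Igl-5 (Igll1), which encodes a surrogate light chain of developing B cells. In the comparisons, 21 of the 28 passed the filter on dim probes at least once and 7 never did. The Rbpj and Rbpjl probes were detected on at most 4 colon arrays, and only 1 of them, for Rbpj, was tested, in cDC1s (log2 difference -0.22).

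Immunoglobulin transcripts were among the brightest signals of these myeloid sorts. The 28 probes held 0.301% to 0.794% of the summed raw intensity of a colon array (median 0.489%), against 0.0268% and 0.0328% on the WT and Mbd2-/- T cell arrays. Igk-C (Igkc), the constant region shared by all kappa chains, had a raw intensity of 7443 to 23919 on colon arrays and ranked between 1 and 124 among all 45281 probes. It was the brightest of all on WT monocyte arrays 1, 2 and 3 and on Mbd2-/- monocyte array 9. On both T cell arrays it read 234 and ranked 6857 and 4897. The number of chain probes detected was 16 to 21 per colon array, 4 on the WT and 5 on the Mbd2-/- T cell array. Those detected on both T cell arrays were Igk-C and the 2 Igh-6 probes, for the mu constant region of IgM. These T cell values have no replicate, and the 2 tissues and 2 models differ as well.

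The next brightest members were heavy variable and lambda probes. Over the colon arrays Igh-VJ558 read 13.26 to 13.85 by ILMN_2635272 and 12.42 to 13.58 by ILMN_2772264, and Igl-V1 (Iglv1) 10.39 to 13.32 by ILMN_1245146. Igk-C itself ran from 13.16 to 14.14, where 14.14 is the top of the common scale. Group means of Igk-C were 14.05 ± 0.13 (SD, n = 5) in WT and 13.92 ± 0.15 (n = 5) in Mbd2-/- monocytes, 13.76 ± 0.17 (n = 5) and 13.77 ± 0.12 (n = 5) in macrophages, and 13.82 (n = 2) and 13.45 ± 0.26 (n = 3) in cDC1s. These probes were bright on every array, while Igk-V33, Igk-V38 and LOC100047788 went from near background to bright between arrays.

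The number of probes detected was similar across groups (16024 to 18608), while the mean raw intensity ran from 172 to 353 on the colon arrays. In cDC1s it was 265 to 292 on WT arrays and 172 to 228 on Mbd2-/- arrays, without overlap. Marker lists of the labelled cells were highest in their own sorts, with the monocyte list summing to 14723 to 25673 on monocyte arrays, the macrophage list at 46695 to 55159 on macrophage arrays and the cDC1 list at 16327 to 19898 on cDC1 arrays against at most 3618 elsewhere. The macrophage list also summed to 20501 to 25448 on monocyte arrays. On cDC1 arrays the Mbd2-/- sums of the macrophage list (3067 to 5981, WT 2660 to 2790) and monocyte list (7767 to 9825, WT 6686 to 6977) were higher without overlap. So were those of the neutrophil list (1145 to 2891, WT 667 to 774) and the plasmacytoid dendritic cell list. The cDC1 list was lower there (16327 to 18287, WT 18791 to 19898). With so few arrays 31.8% of all probes did not overlap either. Epithelial transcripts were bright in every sort, with 10 of 11 genes detected on all colon arrays, Muc2 at 11.09 to 11.76 and Krt8 at 10.80 to 11.56 in group means, and a list sum of 5828 to 22396. Their part in the chain signals was not tested. Taken 6 at a time, the deposited columns form blocks. Monocyte arrays lay in column blocks 1 and 2, macrophage arrays in blocks 3 and 4, WT cDC1s in blocks 1 and 2 and Mbd2-/- cDC1s in blocks 3, 4 and 5. The table does not say what a block is. Cell type, and genotype in cDC1s, cannot be told apart from it.

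B lineage genes were measured beside the chains. Each gene of the lists used here is given by 1 probe, also where the array holds more, such as 2 for Cd79b and 5 for Fcgr2b. Of 17 plasma cell genes, 16 were on the array and 9 were detected on all 25 colon arrays, among them Xbp1, the transcription factor of antibody secretion, at 11.30 to 11.96 in group means, and Mzb1, an endoplasmic reticulum protein of B and plasma cells that assists antibody assembly, at 7.57 to 9.49. Xbp1 was also read on the T cell arrays (raw intensity 1380 and 695). Some plasma cell genes lay nearer background, with Jchain at 4.79 to 5.80 (detected on all 25 arrays), Prdm1 at 4.30 to 5.19 (18 arrays) and Derl3 at 4.51 to 5.38 (21 arrays). Of 18 B cell genes, 17 were on the array, 6 were detected on all colon arrays, and Pax5, which defines the B cell lineage, was detected on none. Ms4a1 (CD20) was detected on 6 arrays. The summed intensity of the B cell list was 1387 to 2200 in WT monocytes, 919 to 1682 in Mbd2-/- monocytes, 5218 to 7047 in WT macrophages and 4952 to 6601 in Mbd2-/- macrophages. In cDC1s it was 1576 to 1735 for WT and 1435 to 2072 for Mbd2-/-. The plasma cell list ran from 9802 to 16323 over the same groups. A single gene, Cd72, made 53.5% to 78.9% of the B cell sum on macrophage arrays and 15.0% to 52.0% elsewhere. With it the sum was higher on every macrophage array than on any other. Without Cd72 the sum on WT macrophage arrays, at 1835 to 3275, still lay above that on every monocyte and cDC1 array. Those ran from 899 to 1292 in WT monocytes, 532 to 947 in Mbd2-/- monocytes and 1211 to 1602 over cDC1s. Mbd2-/- macrophages, at 1046 to 2450, overlapped WT monocytes, cDC1s and WT macrophages. Xbp1 and Herpud1 made 71.1% to 82.7% of the plasma cell sum. The part of B lineage cells or of free RNA in the chain signals was not tested, and in such bulk samples fewer cells of a type and less RNA per cell cannot be told apart.

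Among the heavy chain constant regions, the mu probes had the narrowest range over colon arrays (3.26-fold and 3.50-fold, against 7.86-fold or more for the others), while Igk-C ranged over 1.97-fold. The Igh-6 probe ILMN_2744657 (Ighm) read 10.29 ± 0.23 (SD, n = 5) in WT monocytes, 9.75 ± 0.33 (n = 5) in Mbd2-/- monocytes, 10.70 ± 0.28 (n = 5) in WT macrophages, 10.36 ± 0.37 (n = 5) in Mbd2-/- macrophages, 10.38 ± 0.19 (n = 2) in WT cDC1s and 10.52 ± 0.22 (n = 3) in Mbd2-/- cDC1s. The gamma probes varied more. Igh-4 (Ighg1, the IgG1 constant region) read 5.51, 6.41, 6.32, 7.05 and 6.62 on WT monocyte arrays 1 to 5 and 7.03, 8.11, 7.99, 6.86 and 7.38 on Mbd2-/- monocyte arrays 6 to 10, with 1 WT array inside the Mbd2-/- range. The gamma-2a-like probe LOC100047788 (ILMN_2633179) ranged over 265-fold between colon arrays, from 4.41 on Mbd2-/- macrophage array 19, where it was not detected, to 12.46 on WT monocyte array 2. Its second probe, ILMN_2677207, ranged over 65.2-fold.

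Probes of the same chain mostly varied together over the 25 colon arrays, and probes of different chains less closely. Of 7 pairs under a shared symbol, r was 0.99 for LOC100047788, 0.98 for Igl-V1, 0.97 for Igh-6, 0.96 for Igk-V38, 0.83 for Igk-V5, 0.34 for Igh-VJ558 and -0.39 for Ighg, whose dimmer probe ILMN_1222531 was detected on 18 arrays. Probes under a shared symbol can share sequence and are not independent. The 183 pairs of different symbols had a median r of 0.14 (-0.47 to 0.81). The highest among them were Igk-V33 with the Igk-V38 probe ILMN_1238932 and the Igk-V5 probe ILMN_1228607 with LOC100047162, both at 0.81. These values are across arrays of 6 groups, which also differ in sort, genotype and column block.

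The first comparison asked whether chain levels differed by genotype in colon monocytes. None of the 20 immunoglobulin probes tested was called (background over all 16190 probes tested, 0.432% called). At an unadjusted p under 0.05 there were 10 of 20, against 13.7% of all probes. The median difference of the 20 was -0.24, against -0.020 over all probes, and their range ran from -1.85 to 1.09. Chain probes varied more between arrays than other probes, with a median standard error of 0.41 against 0.16.

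Heavy chain constant probes gave the widest differences in monocytes. LOC100047788 (ILMN_2633179) read 11.01, 12.46, 10.92, 11.71 and 11.90 on WT monocyte arrays 1 to 5 and 10.62, 10.89, 10.31, 7.56 and 9.37 on Mbd2-/- monocyte arrays 6 to 10. Every Mbd2-/- array was below every WT array, array 9 by far the most. It was 3.61-fold lower (log2 difference -1.85, SE 0.83, limma adjusted p = 0.31), and its second probe differed by -1.69 (SE 0.64, adjusted p = 0.209). The 2 Igh-6 probes differed by -0.54 (SE 0.18, adjusted p = 0.139) and -0.45 (SE 0.20, adjusted p = 0.289). Igh-4 went the other way, by 1.09 (SE 0.48, adjusted p = 0.299), and the bright Ighg probe ILMN_1249975 differed by -0.76 (SE 0.46, adjusted p = 0.507). Of 20 probes, LOC100047788 (ILMN_2633179) and an Igh-VJ558 probe had groups that did not overlap, both lower in Mbd2-/- (background 4.85% of all probes, 2.87% lower).

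No variable probe was called in monocytes, and the kappa variable differences ran in both directions. Igh-VJ558 (ILMN_2772264), of the large J558 heavy variable family, ran from 13.22 to 13.58 on WT monocyte arrays and from 12.69 to 13.17 on Mbd2-/- ones, a difference of -0.35 (SE 0.13, adjusted p = 0.194). Igk-V5 (ILMN_2631259) read 11.17, 12.11, 12.28, 11.51 and 12.40 on WT and 11.22, 11.16, 10.66, 9.99 and 9.72 on Mbd2-/- monocyte arrays. The groups met only at WT array 1 and Mbd2-/- array 6. The difference was -1.34 (SE 0.40, adjusted p = 0.0914), and the second Igk-V5 probe and LOC100047162, a kappa chain-like transcript, differed by -1.43 (SE 0.60) and -1.38 (SE 0.58), each with adjusted p = 0.271. Igk-V1 differed by -0.82 (SE 0.29, adjusted p = 0.164). Igk-V33 (0.17), both Igk-V38 probes (0.50 and 0.64), Igk-C (-0.12) and both Igl-V1 probes (0.12 and 0.15) had adjusted p of 0.443 to 0.937.

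These counts depended on single arrays. Without WT macrophage array 12, which enters through the shared spread, Igk-V5 (ILMN_2631259, adjusted p = 0.0465) and LOC100047162 (adjusted p = 0.0469) were called in monocytes, and without WT monocyte array 4 Igk-V1 was called (-1.12, adjusted p = 0.0115). The 93 other immunoglobulin probes tested in monocytes, none of them chosen by the rule, had 0 calls and a median of 0.08, and 10 of them had an unadjusted p under 0.05.

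In macrophages, the same question gave a rise of 1 kappa variable gene. Igk-V38 (Igkv19-93) was higher in Mbd2-/- macrophages by both its probes, the only calls among 20 probes tested, and 0 were lower (background 1.49% called, with 1.37% higher and 0.119% lower). ILMN_1238932 read 6.42, 5.70, 7.87, 7.22 and 6.40 on WT macrophage arrays 11 to 15 and 9.11, 7.82, 8.08, 8.45 and 7.60 on Mbd2-/- macrophage arrays 16 to 20. WT array 13 lay above 2 of the Mbd2-/- arrays, and the other 4 WT arrays lay below all of them. The mean went from 6.72 ± 0.84 to 8.21 ± 0.59 (SD, n = 5 each), 2.80-fold (log2 difference 1.49, SE 0.30, limma adjusted p = 0.00881). ILMN_1254159 went from 6.80 ± 0.82 to 8.11 ± 0.62, 2.48-fold (1.31, SE 0.35, limma adjusted p = 0.0336). Within column blocks 3 and 4 the difference was 1.36 and 1.52 for the first probe and 0.92 and 1.57 for the second.

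The 2 Igk-V38 probes differed in how far their calls rested on single arrays. The first probe stayed called without any single array (adjusted p 0.0013 to 0.029). The second was not called without WT array 12 (adjusted p = 0.115), without Mbd2-/- array 18 or 19, or without Mbd2-/- array 16, which left 1 or, without array 16, 3 probes called in all. With macrophage arrays normalized and fitted alone neither passed (adjusted p = 0.111 and 0.138).

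The gamma-2a-like probes did not pass the thresholds in macrophages. LOC100047788 (ILMN_2633179) read 10.80, 11.79, 11.23, 11.41 and 10.63 on WT and 10.40, 10.42, 9.70, 4.41 and 8.63 on Mbd2-/- macrophage arrays. Every Mbd2-/- array was below every WT array, and array 19 was at background. The differences of its 2 probes were -2.46 (SE 0.83, adjusted p = 0.0763) and -1.94 (SE 0.64, adjusted p = 0.0721), the only probes of the 20 whose groups did not overlap (background 5.29%, with 3.13% lower). Within column blocks 3 and 4 they were -4.75 and -0.85 for the first and -3.68 and -0.65 for the second, and with the column block as a term both were called (-2.80, adjusted p = 0.0414, and -2.16, adjusted p = 0.0388). Both were also called without Mbd2-/- array 16 or 17 (4 calls in all without array 17).

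Igh-4 read 4.66, 5.81, 6.07, 5.05 and 6.69 on WT and 7.21, 8.15, 8.12, 6.43 and 5.16 on Mbd2-/- macrophage arrays, so array 20 lay within the WT range. The difference of 1.36 (SE 0.48) had an adjusted p of 0.0896, and it was called without Mbd2-/- array 20 (1.83, adjusted p = 0.0309) or without WT array 15 (1.62, adjusted p = 0.0427), with 3 calls in all in either case. Igk-V33 (Igkv13-84) read 7.70, 4.39, 7.79, 8.22 and 8.00 on WT and 9.91, 8.29, 8.00, 6.88 and 8.55 on Mbd2-/- macrophage arrays, with WT array 12 at background. Its difference was 1.11 (SE 0.61, adjusted p = 0.276). The second Igk-V5 probe differed by 1.36 (SE 0.60, adjusted p = 0.17) and the Igl-V1 probes by 0.80 (SE 0.44) and 0.77 (SE 0.42), with adjusted p of 0.279 and 0.273. Igk-C differed by 0.01 (SE 0.11, adjusted p = 0.961).

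By class, all 7 kappa variable or unspecified probes (kappa variable probes below) and both lambda probes had differences above 0 in macrophages (medians 1.11 and 0.78). The 7 include LOC100047162 and both probes of Igk-V38 and of Igk-V5, which are not independent. Of the heavy constant probes, 5 of 7 were below 0 (median -0.34). Over the 20 probes the median was 0.38, against -0.065 over all probes, and 6 had an unadjusted p under 0.05, against 23.7% of all probes. Among 82 immunoglobulin probes outside the rule, 14 were called higher and 0 lower in Mbd2-/- macrophages, with a median of 1.13 and 77 above 0. They included IGHA, the constant region of IgA (from 5.84 to 7.09, log2 difference 1.25, SE 0.35, adjusted p = 0.0397). With macrophage arrays fitted alone, 0 of these were called.

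In cDC1s, kappa variable probes were split between genes higher on the Mbd2-/- arrays and genes lower there. Igk-V33 read 4.38 and 4.32 on WT cDC1 arrays 23 and 26, not well above background on either, and 8.94, 9.64 and 7.95 on Mbd2-/- cDC1 arrays 27, 28 and 30, at least 19.3-fold higher (the bound takes the dimmest detected signal of each WT array). Igk-V38 (ILMN_1238932) read 5.27 and 4.77 on WT and 8.09, 8.54 and 8.10 on Mbd2-/- arrays, and its second probe 6.30 and 5.01 against 7.96, 8.58 and 7.79. These 3 of 20 chain probes are those past the thresholds used above (1.87% of all probes tested), and as this contrast chose the set nothing is read from that count. Both WT arrays were below all Mbd2-/- arrays for these 3 probes.

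Igk-V5 (ILMN_2631259) went the other way in cDC1s, with 10.81 and 10.34 on WT and 9.69, 9.61 and 8.48 on Mbd2-/- arrays. Igk-C read 13.82 on both WT arrays and 13.52, 13.66 and 13.16 on Mbd2-/- arrays. Among the 20 probes 4 were higher and 3 lower without overlap, where with so few arrays 31.8% of all probes did not overlap (16.9% higher and 14.8% lower). The median difference was -0.07. Igl-V1 (ILMN_1245146) read 10.39 and 11.76 on WT and 12.77, 12.19 and 11.34 on Mbd2-/- arrays, an overlap of 1 array.

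Side by side, Igk-V33 was at or near background on the 2 WT cDC1 arrays and on WT macrophage array 12, and at 6.88 to 9.91 on the other 22 colon arrays. The Mbd2-/- cDC1 levels (7.95 to 9.64) thus lay within the range of Mbd2-/- monocytes and macrophages (6.88 to 9.91). For Igk-V38 (ILMN_1238932) the group means of Mbd2-/- monocytes, macrophages and cDC1s were 8.14, 8.21 and 8.24, and those of WT were 7.64, 6.72 and 5.02. For both genes the means differed between cell types mainly among the WT arrays, and WT monocytes and WT macrophages overlapped. As the cDC1 contrast chose the set, this follows in part from that choice, and nothing is read from it. The WT and Mbd2-/- cDC1 arrays also lay in different column blocks.

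Whether the genotype difference itself differed between macrophages and monocytes was tested as an interaction. None of 21 chain probes was called (background 0.0213%, or 0.0266% without the size limit), with 6 at an unadjusted p under 0.05 against 7.01% of all probes. The values furthest from 0 were those of Igk-V5, 2.79 (SE 0.85, adjusted p = 0.455) and 1.87 (SE 0.56, adjusted p = 0.449), where the difference was below 0 in monocytes and above 0 in macrophages. All 7 kappa variable probes were above 0 (median 1.04), and the 21 probes had a median of 0.47. Of 108 other immunoglobulin probes, 0 were called and 104 were above 0. No difference between the cell types was therefore shown for any single probe.

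WT macrophage arrays had lower levels of the kappa variable genes Igk-V5 and Igk-V1 than WT monocyte arrays. The 2 sorts lay in different column blocks, so sort and block cannot be told apart in what follows. Of 19 probes tested, 3 were called lower and 0 higher (background 4.62% called, 2.15% lower and 2.47% higher). Igk-V5 (ILMN_2631259) read 10.34, 8.79, 10.65, 9.84 and 10.88 on WT macrophage arrays, all below the lowest WT monocyte array at 11.17, a difference of -1.80 (SE 0.40, limma adjusted p = 0.00184). Its second probe differed by -2.62 (SE 0.60, adjusted p = 0.00244) and Igk-V1, from 6.22 to 4.81, by -1.40 (SE 0.29, adjusted p = 0.000847). Without WT macrophage array 13 there were 5 calls and without array 14 there were 6.

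All 7 kappa variable probes had lower means in WT macrophages (median -1.40), and so did both Igl-V1 probes (-0.81 and -0.98). The mu probes had higher means, with Igh-6 at 0.49 (SE 0.20, adjusted p = 0.0764) and 0.41 (SE 0.18, adjusted p = 0.108). Of the 19 probes 3 did not overlap between the sorts (background 16.6%, with 10.4% higher and 6.20% lower), Igh-6 (ILMN_2744660) higher in macrophages and Igk-V5 (ILMN_2631259) and Igh-VJ558 (ILMN_2772264) lower. Over the 19 the median was -0.73, and over 80 other immunoglobulin probes it was -1.21, with 21 called lower and 0 higher. The B cell list moved the opposite way, with 9 of 14 tested genes higher in WT macrophages at an adjusted p under 0.05 and 0 lower (background 23.6% in both directions). The plasma cell list was mixed, with a median of -0.27 over 14 tested genes. At that threshold 3 were lower, namely Sdc1 (-1.05), Derl3 (-0.56) and Xbp1 (-0.30). Another 4 were higher, namely Slamf7 (0.98), Herpud1 (0.90), Irf4 (0.83) and Cd38 (0.52). The part of either list in the chain levels was not tested.

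The sorts were then compared in Mbd2-/- mice, where they again lay in different column blocks. None of 20 chain probes was called between Mbd2-/- macrophages and Mbd2-/- monocytes (background 5.59%), and 2 had an unadjusted p under 0.05, against 37.3% of all probes. These were the Igh-6 probes, higher in macrophages by 0.68 (SE 0.20, limma adjusted p = 0.0125) and 0.61 (SE 0.18, limma adjusted p = 0.0136), under the size limit of a call (27.4% of all probes passed without that limit). A replicate block on label numbers that differ by 10 was also tried. The labels state no such pairing, and it was taken in part from correlations of these same chain probes. With it LOC100047788 (ILMN_2633179) was called lower in macrophages (-1.04, limma adjusted p = 0.0404), and nothing is read from that call. In the fit with no block its limma adjusted p was 0.391, and without Mbd2-/- macrophage array 19 its difference was 0.03. The kappa variable probes had a median of 0.07. These comparisons share their arrays with the genotype comparisons, so that a low WT macrophage group enters both, and the difference between the 2 genotypes is the interaction above.

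Some variable probes were seen on few arrays. Igh-V11 was detected on Mbd2-/- monocyte array 10 (5.26) and Mbd2-/- macrophage array 20 (6.65) and on no other. Igh-VS107 (ILMN_1217128), of the S107 heavy variable family, read 6.20 and 6.37 on the same arrays and 6.93 on Mbd2-/- cDC1 array 27, and at most 5.48 on the other 22. LOC100046350, a kappa chain-like transcript, was detected on Mbd2-/- monocyte array 7 (4.68), Mbd2-/- macrophage array 17 (4.84) and Mbd2-/- cDC1 array 28 (5.53). Igk-V was detected on 1 array, Igh-V10 on 2 and Igh-V15 on 5, all at 4.94 or less. The labels do not say whether arrays of different sorts came from the same mice.

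The B cell genes that differed by genotype in monocytes and macrophages were lower in Mbd2-/- cells. In monocytes 3 of 12 tested B cell genes were lower at an adjusted p under 0.05 and 0 higher (1.80% of all probes passed in either direction). They were Cd79b, the signalling chain of the B cell receptor (-1.07, adjusted p = 0.00928), Vpreb3 (-1.02, adjusted p = 0.0286) and Fcmr, the IgM Fc receptor (-1.49, adjusted p = 0.035). Cd79b did not overlap in monocytes, with WT arrays at 7.81 to 8.23 and Mbd2-/- arrays at 6.55 to 7.63. Of 14 plasma cell genes, Irf4 (-0.75, adjusted p = 0.0204) and Tnfrsf17 (-0.75, adjusted p = 0.026) were lower and Cd38 (0.67, adjusted p = 0.0459) higher.

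In macrophages 3 of 15 B cell genes were lower and 0 higher (5.66% of all probes passed), namely Cd79b (-0.76, adjusted p = 0.042), Tnfrsf13c, a receptor for the survival factor BAFF (-0.92, adjusted p = 0.0415), and Vpreb3 (-1.17, adjusted p = 0.0092). Of 14 plasma cell genes Irf4 (-0.75, adjusted p = 0.0154) and Tnfrsf13b (-0.50, adjusted p = 0.017) were lower and 0 higher. The 15 B cell genes had a median of -0.58, and Cd22 (0.36), Bank1 (0.16) and Cd72 (0.14) had differences above 0 that did not pass. Sdf2l1 (1.10, adjusted p = 0.0381) and Creld2 (0.75, adjusted p = 0.000752), which act in protein folding in the endoplasmic reticulum, were higher among 11 such partners tested. Mzb1 had the same mean of 8.94 in WT and Mbd2-/- macrophages (adjusted p = 0.993), and 9.49 against 8.96 in WT and Mbd2-/- monocytes (-0.53, adjusted p = 0.288). The T cell list, as a check on other lymphocytes, had 0 of 7 genes past that threshold, the epithelial list 0 of 10 and the neutrophil list 0 of 5. Of other lists in macrophages, the monocyte genes Ly6c1 (0.91, adjusted p = 0.0484) and Plac8 (0.45, adjusted p = 0.0389) were higher in Mbd2-/- cells, 2 of 6 tested, and the summed monocyte list ran from 4012 to 6760 on WT arrays against 5802 to 8076 on Mbd2-/- ones. Prg2, a granule protein of eosinophils, was higher as well (0.91, adjusted p = 0.0205), while the eosinophil markers Siglecf and Epx were detected on 0 colon arrays. Mertk, a macrophage receptor for dying cells, was higher (0.88, adjusted p = 0.00848), and Zbtb46, a dendritic cell transcription factor (-0.55, adjusted p = 0.00932), and Bcl6 (-0.59, adjusted p = 0.00881) were lower. In cDC1s 0 of 9 B cell and 0 of 14 plasma cell genes passed (6.64% of all probes), and Cox6a2 (from 4.58 to 6.67) and Pacsin1 (from 6.02 to 8.22), of the plasmacytoid dendritic cell list, were higher, while Tcf4 (from 8.85 to 8.26) was lower and Siglech (5.89 and 5.79) did not pass. Of other lists in cDC1s, C1qb of macrophages (from 8.76 to 9.68), Ltf of neutrophils (from 5.05 to 6.12) and Prg2 (from 4.81 to 6.08) passed and were higher. So was Ung (from 7.17 to 8.00), of the B cell development list. The part of any of these genes in the chain differences was not tested.

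Of genes that bind or carry antibody, 0 of 8 tested in monocytes and 0 of 9 in macrophages differed by genotype at an adjusted p under 0.05. Over all probes 1.80% and 5.66% passed, so counts of 0 in so short a list do not set these genes apart. Fcgr1, the high-affinity IgG receptor of monocytes and macrophages, was 9.58 and 9.80 in WT and Mbd2-/- monocytes and 9.65 and 9.73 in macrophages. In cDC1s 2 of 9 such genes passed (6.64% of all probes), the IgG receptors Fcgr3 (from 6.90 to 7.89) and Fcgr4 (from 8.50 to 9.48), both higher on Mbd2-/- arrays. The IgG receptor Fcgr2b was lower there (from 9.61 to 9.13) and did not pass. Pigr, the epithelial transporter of IgA, was 5.77 and 7.09 in WT and Mbd2-/- macrophages (1.32, adjusted p = 0.112).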

How the data were processed

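RNA of 25 sorted colon samples and 2 splenic T cell samples was hybridised by the authors to Illumina MouseWG-6 bead arrays. The deposited intensity of each of 45281 probes is the mean over its beads without normalization or background subtraction, and the deposited detection p-value compares it with 936 negative control probes. The labels name lumi and limma without versions. No genome build was given in the sources used here, and 3 columns of no sample were not used.

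Intensities were background-corrected with normexp (limma 3.58.1, R 4.3.3), with negative controls inferred from the detection p and an offset of 16, quantile normalized over the 25 colon arrays and log2 transformed. T cell arrays were read on the raw scale only. Quantile normalization gives the brightest probe of every array the same value, so the highest levels (Igk-C) are compressed. To enter a comparison, a probe had to be detected (p under 0.05) on a number of its arrays no lower than the size of the smaller group. A model of 6 groups gave each comparison by lmFit and eBayes, with Benjamini-Hochberg adjustment over all probes tested. Non-overlap means that all arrays of a group lie above all of the other. On simulated data with 100 probes changed by a log2 difference of 1, 83% (monocytes), 77% (macrophages) and 47% (cDC1s) passed the adjusted p, and of those changed by 2, 98%, 94% and 84%. With the size limit of a call as well, 44%, 37% and 25% of those changed by 1 were called. The changed probes were drawn from those detected on all 25 colon arrays. More probes were tested in the simulation (17578 in monocytes, 19410 in macrophages, 28758 in cDC1s) than in the data (16190, 16834 and 17838). Simulated arrays were also background-corrected with the deposited control probes. Chain probes varied more than others (median standard error 0.41 against 0.16 in monocytes), so these shares are no measure of their recovery.

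The members, gene lists and tests were chosen with earlier results of these data known. Named probes were the constant regions, the surrogate light chain, called probes, the brightest, those detected on all colon arrays and those with an array standing apart, together with defining genes of the lists, of which 1 is not reported here. Current names (Ighg1, Ighm, Igkc, Igkv13-84, Igkv19-93, Iglv1, Igll1) come from RefSeq (GRCm38.p6) by symbol or synonym and carry no coordinates. The array annotation does not say where on a transcript a probe lies. Probes of related variable genes may share targets, so a symbol names what a probe was designed for. Alternatives were other background corrections, normalizations, filters, thresholds, array weights, cell types fitted alone, each array left out, and, added after seeing the data, the deposited control probes, column blocks of 6 and a replicate block. Monocyte and macrophage labels of a genotype carry numbers that differ by 10. Deviations from the group means over the chain probes correlated at 0.52 to 0.86 in the 5 such Mbd2-/- pairs and at -0.01 to 0.57 in the 5 WT pairs. The 20 other Mbd2-/- pairs ran from -0.67 to 0.75, with 5 above 0.1. Monocyte array 8 was more like macrophage array 17 (0.75) than array 18 (0.59). By a limit of 0.1 in every pair the numbers were taken to pair the Mbd2-/- arrays. Over 18771 other probes the 5 such Mbd2-/- pairs ran from 0.13 to 0.45 and the 5 WT pairs from -0.02 to 0.46, with 5 and 4 above 0.1. Of the pairs with other numbers, 3 of 20 (Mbd2-/-) and 4 of 20 (WT) were above 0.1 there. The pairing is only a hint, in part from the same chain probes, and the labels do not state it. Arrays are said to be biological replicates, but the labels do not name their mice, so p-values measure the spread between arrays. Their number limits the precision.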

Additional observations from a re-analysis of the deposited data

Results flagged for a closer look

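In 80 groups of 5 arrays examined, 6 arrays lay far from the other 4 of their group by Dixon's criterion, where chance gives about 1 in 20 groups. Of these, 3 were WT macrophage array 12, which was low for Igk-C (13.47 against 13.80 to 13.89), Igk-V33 (4.39 against 7.70 to 8.22) and LOC100047162 (7.20 against 10.67 to 11.51). Mbd2-/- macrophage array 20 was high for Igh-VS107 (ILMN_1217128, 6.37 against 4.47 to 4.84) and low for Igl-V1 (ILMN_1245146, 11.60 against 12.75 to 13.17). WT macrophage array 15 was high for the dim Ighg probe ILMN_1222531 (5.28 against 4.18 to 4.50). Without array 12 only the first Igk-V38 probe was called in macrophages (1.23, adjusted p = 0.029), and without array 20 Igh-4 was called as well (1.83, adjusted p = 0.0309).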

How the results depend on the processing

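Over the settings tried, the 51 differences of chain probes that the text prints or that had an unadjusted p under 0.05 (monocytes, macrophages) or a size of at least 1 (cDC1s) were recomputed 1773 times. Of the values, 1724 kept their direction and side of the threshold, 23 passed it newly, 13 no longer passed and 13 changed sign, the last all of differences that were not called. With median scaling the monocyte differences of Igk-V33 (-0.15) and Igl-V1 (-0.06 and -0.11) turned, and with single arrays left out they ran from -0.13 to 0.40, from -0.14 to 0.28 and from -0.13 to 0.34. Igk-C in macrophages was -0.02 with the column block as a term and -0.06 to 0.04 with single arrays left out, and in cDC1s 0.07 by cyclic loess. LOC100047788 (ILMN_2633179) between the Mbd2-/- sorts ran from -1.58 to 0.03, the last without macrophage array 19. In monocytes the count of 0 called probes became 1 with median scaling and 1 with array weights (Igk-V5, ILMN_2631259, both times), and 0 to 2 with single arrays left out. In macrophages the count of 2 became 1 without background correction, 1 with median scaling, 1 without a filter on dim probes, 1 at an adjusted p under 0.01, 0 with macrophages fitted alone, 4 with the column block as a term, and 1 to 4 with single arrays left out. In cDC1s, where the count is a description, it was 0 with cDC1s fitted alone, 2 with median scaling and 3 in each fit without an array, not always of the same probes (without WT array 26 Igl-V1, ILMN_1230696, took the place of Igk-V38, ILMN_1254159). WT macrophages against WT monocytes gave 5 with median scaling and 3 to 6 with single arrays left out. Mbd2-/- macrophages against Mbd2-/- monocytes gave 2 without a minimum fold and 0 without any single array. The causes were not tested. Median scaling moved the median of all probes by genotype to -0.26 in monocytes and -0.37 in cDC1s, so that differences there are read relative to it. The interaction gave 0 under each setting.

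With a replicate block on label numbers that differ by 10, added after seeing the data, the Mbd2-/- sorts gave 1 call (LOC100047788, ILMN_2633179), WT macrophages against monocytes 4 and the interaction 0. Nothing is read from the Mbd2-/- call, as the pairing rests in part on the same chain probes. In WT the numbers were not taken as a pairing, since 1 of 5 pairs missed the limit. No paired analysis was possible for the genotype comparisons because WT and Mbd2-/- arrays share no number.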

Other observations

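The probes whose level was most like the mean of the 20 chain probes detected on at least 13 colon arrays were ranked by Pearson r among 16107 others, as a description over the same 25 arrays. Mzb1 (listed as 2010001M09Rik) came first at 0.76, with Emr4, an adhesion receptor of myeloid cells, at 0.76 and B3gat3, an enzyme of proteoglycan synthesis, at 0.75. The next were LOC100047628 (0.73), Serpinb2 (0.72), G0s2 (0.72), LOC434031 (0.71), D6Mit97 (0.71), LOC636944 (0.71) and LOC636696 (0.70). Of these 10, LOC434031 and LOC636944 are immunoglobulin probes by their definitions, and that of LOC100047628 names a Chain L. Further plasma cell genes stood at 0.65 (Derl3, rank 56), 0.62 (Pou2af1, rank 99) and 0.60 (Sdc1, rank 150), and Jchain, the joining chain of secreted IgA and IgM, at 0.26 (rank 3507). Others of the list ran the opposite way, with Slamf7 at -0.53 (rank 15492), Herpud1 at -0.51 (rank 15373) and Irf4 at -0.08 (rank 9247). The mean profile itself was 9.75 to 10.29 in WT monocytes, 9.15 to 10.08 in Mbd2-/- monocytes, 8.72 to 9.51 in WT macrophages, 8.92 to 10.13 in Mbd2-/- macrophages, and, for cDC1s, 8.88 to 8.94 (WT) and 8.96 to 9.53 (Mbd2-/-).

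IGLC2, a lambda constant probe outside the rule, was 7.60 in WT and 9.83 in Mbd2-/- cDC1s on average, with no overlap. In cDC1s 16.9% of all probes were higher without overlap, and genotype there cannot be told apart from column block. In macrophages IGLC2 was 9.19 and 10.15 (0.96, SE 0.33, limma adjusted p = 0.0815). IGHG1, a second probe of IgG1, was 6.01 and 7.02 in monocytes, 5.18 and 6.54 in macrophages and 4.62 and 5.81 in cDC1s (WT and Mbd2-/-), beside the Igh-4 differences of 1.09, 1.36 and 1.23. In macrophages its adjusted p was 0.0692.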
